A study of Mus musculus with 4 samples.

Results

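Genomic imprinting leaves a gene expressed mainly from the copy inherited from 1 parent, and 10 imprinted genes outside the insulin-like growth factor axis were followed here across their imprinted domains. They were chosen by symbol from a table of 20325 genes: Peg3 and Zim1 of the Peg3 domain, Plagl1, H19, Cdkn1c, Grb10, Meg3, Peg10, Mest and Ndn. Rows under the symbols were found for 8 of the 10, and H19 and Meg3, long noncoding RNAs, were not analysed here. RNA was sequenced from C3H10T1/2 cells, an embryo-derived mouse mesenchymal line of the C3H strain that can form several connective tissues. The cells stably expressed FLAG-HA-tagged histone H3.3, either with the K36M substitution, lysine 36 replaced by methionine (K36M, n = 2 libraries), or as the wild type sequence (WT, n = 2 libraries). All 4 libraries came from cells at passages 10 to 15 in DMEM with 10% serum, and both groups carry a tagged transgene on top of the endogenous H3.3 genes. The sources used here do not say whether the lines were clones or pools, nor whether replicate libraries stem from separate cultures. The p-values therefore reflect the spread of these libraries alone, and that spread may be technical.

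Imprinted genes lie in clusters, each under a control region whose DNA is methylated on 1 parental copy. Some members of a cluster are expressed from the paternal copy and others from the maternal copy, and many of them regulate fetal growth or the step between progenitor proliferation and differentiation. The parental copies named below are background knowledge from mouse, and the counts do not tell the copies apart. H3K36 methylation, the mark that K36M histones inhibit, is deposited over transcribed genes and guides de novo DNA methyltransferases to chromatin.

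The starts of 4 members are shown because these genes moved furthest: Peg3, Zim1 and Plagl1 upward and Mest downward. Each line gives the RefSeq window from 250 bases before to 50 bases after the annotated start, 5′ to 3′ on the strand of the gene, in build GRCm38.p6, which is not the mm9 build of the counts. Capitals mark matches on either strand to GGGGCCCC, a site of the PLAGL1 protein that reads the same on both strands, and to TGCCGC, the site that ZFP57 reads when it is methylated. The Peg3 window is chr7:6730370-6730669 on the minus strand, the Zim1 window chr7:6696383-6696682 on the minus strand, the Plagl1 window chr10:13090582-13090881 on the plus strand, and the Mest window, the second of 3 listed starts, chr6:30737800-30738099 on the plus strand.
Peg3: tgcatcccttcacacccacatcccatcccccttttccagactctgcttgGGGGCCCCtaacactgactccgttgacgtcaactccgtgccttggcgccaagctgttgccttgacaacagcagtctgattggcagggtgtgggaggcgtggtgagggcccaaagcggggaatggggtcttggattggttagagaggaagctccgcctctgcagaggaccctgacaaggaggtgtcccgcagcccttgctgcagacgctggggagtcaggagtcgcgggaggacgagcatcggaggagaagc
Zim1: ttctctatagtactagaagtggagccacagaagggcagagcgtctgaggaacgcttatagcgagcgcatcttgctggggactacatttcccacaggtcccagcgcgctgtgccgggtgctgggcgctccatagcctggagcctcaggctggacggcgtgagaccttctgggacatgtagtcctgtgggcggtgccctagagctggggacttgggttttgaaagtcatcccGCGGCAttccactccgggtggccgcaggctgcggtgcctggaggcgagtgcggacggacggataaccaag
Plagl1: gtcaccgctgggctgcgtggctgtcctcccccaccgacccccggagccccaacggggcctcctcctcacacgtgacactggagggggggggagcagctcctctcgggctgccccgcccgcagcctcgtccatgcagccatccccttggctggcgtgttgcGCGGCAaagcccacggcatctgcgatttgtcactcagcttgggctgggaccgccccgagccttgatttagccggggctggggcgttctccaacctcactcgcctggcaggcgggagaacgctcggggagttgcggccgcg
Mest: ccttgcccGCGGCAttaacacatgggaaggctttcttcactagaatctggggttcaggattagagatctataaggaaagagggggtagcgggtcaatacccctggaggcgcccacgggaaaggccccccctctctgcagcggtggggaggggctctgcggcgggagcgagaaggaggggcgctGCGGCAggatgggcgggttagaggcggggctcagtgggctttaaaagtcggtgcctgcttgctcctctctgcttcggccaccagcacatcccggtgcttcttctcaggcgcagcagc

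The Peg3 window held 1 GGGGCCCC match, beginning at position -201 from the start, a motif in 1.08% of the 32851 RefSeq windows. The windows of Zim1, Plagl1 and Mest held 1, 1 and 2 matches to TGCCGC, which 11.6% of all windows held. The first listed windows of Grb10 and Meg3, not shown, also held 1 each. GCCATNTT, a core of the YY1 site, was found in none of the 11 windows listed for 7 members and in 6.05% of all windows, and no 2 matches overlapped within a window. The last Mest window lies 3 bases from the one shown and holds the same matches. The ratio of observed to expected CpG was 0.464 for Peg3, 0.717 for Zim1, 0.696 for Plagl1 and 0.590 for the Mest window shown, against a median of 0.384 over all windows. The first listed start of Mest had a ratio of 0.327 and no TGCCGC match. Among windows not shown, the ratio was 0.973 and 0.446 for the first and second of Grb10 and 0.602 and 0.0588 for those of Meg3. It was 0.623 for Ndn and 0.605 for the last of Mest. These matches describe the letters of the windows only.

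Levels are given as CPM, expected counts per 1000000 after scaling between libraries, and can be compared between libraries but not between genes, since they are not divided by length. Totals ranged from 23343297 to 56041798 expected counts, with the K36M libraries 1.85 times as deep on average, and 3 counts, the floor used here for a gene at 0, stood for 0.0528 to 0.130 CPM. All 12 mesenchymal markers listed were detected in every library, but their sum was 29530 and 27590 CPM in K36M and 44043 and 44363 CPM in WT, with 5 markers higher and 6 lower. Fn1, the fibronectin gene, was 3.04-fold lower and Thy1 11.2-fold higher, while Prrx1, a limb mesenchyme factor, was the 1 marker that did not pass the test. Blood and macrophage markers summed to 42.5 and 41.1 CPM in K36M and 8.31 and 9.30 CPM in WT. Hba-a1 was at 26.7 and 25.3 CPM in K36M and 0.0807 and 0.261 CPM in WT. Ptprc, which defines leukocytes, was at 0.141 and 0.201 CPM in K36M and without a count in WT. Of the 6 blood and macrophage markers tested 4 were higher and 1 lower. The lower one was Fcgr1, at 0.405 and 0.489 CPM in K36M and 1.09 and 1.35 CPM in WT. Neural and glial markers summed to 64.3 and 65.0 CPM in K36M and 183 and 184 CPM in WT, and Tubb3, unlike the sum, was higher in K36M, at 25.7 and 24.8 CPM against 13.4 and 12.8 CPM in WT. The skeletal muscle regulators Myod1, Myog and Pax7 had 0 counts in all 4 libraries. Of the 2 muscle markers tested, Chrna1 was 2.36-fold higher in K36M and Des did not pass. Epithelial markers summed to 24.7 and 26.4 CPM in K36M and 12.1 and 11.04 CPM in WT, with Epcam at 0 in all 4 libraries. They moved both ways, since Cdh1 was 4.04-fold higher in K36M and Krt14 7.44-fold lower. Endothelial markers summed to 7.50 and 7.05 CPM in K36M and 47.9 and 44.8 CPM in WT. The WT sum was mostly Tek and Erg, and the K36M sum mostly Tek and Cdh5. Erg was at 0.158 and 0.288 CPM in K36M and 18.2 and 16.9 CPM in WT. Pecam1 was at 0.0704 and 0.201 CPM in K36M and 0.0403 and 0.130 CPM in WT. Of the 3 endothelial markers tested 2 were lower, and Cdh5, unlike the sum, was 3.22-fold higher in K36M. The part of these shifts in the results below was not tested. In bulk RNA, fewer cells of a type and less RNA per cell cannot be told apart.

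Of the 8 members with a row, 7 passed the filter on low counts and were tested with edgeR, and Cdkn1c did not pass. Peg3, Zim1, Plagl1, Peg10 and Ndn were higher in K36M cells at an adjusted p under 0.05, and Grb10 and Mest were lower. Across all 13162 genes tested 75.6% passed that threshold, 38.5% higher and 37.1% lower, so passing it is common in these data and the sizes carry more than the count. The libraries of the 2 groups did not overlap for any of the 7, as for 87.1% of all genes tested. Peg3 and Zim1 passed the filter, about 0.337 CPM in both libraries of a group, through their K36M libraries alone, so a difference was built into their being tested. The same holds for Snrpn, Asb4, Sfmbt2 and Gatm below and for the marker Hba-a1. It also holds for Oca2, Abca13, Iyd, Pcdh20 and Defb41, whose WT libraries were under that minimum. In the other direction it holds for Ddc, Cobl, Cpa4, Rtl1 and the marker Erg, which passed through WT alone. Their p-values are given with that limit, and 917 of all genes tested passed through K36M alone and 309 through WT alone.

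**Figure D1:**
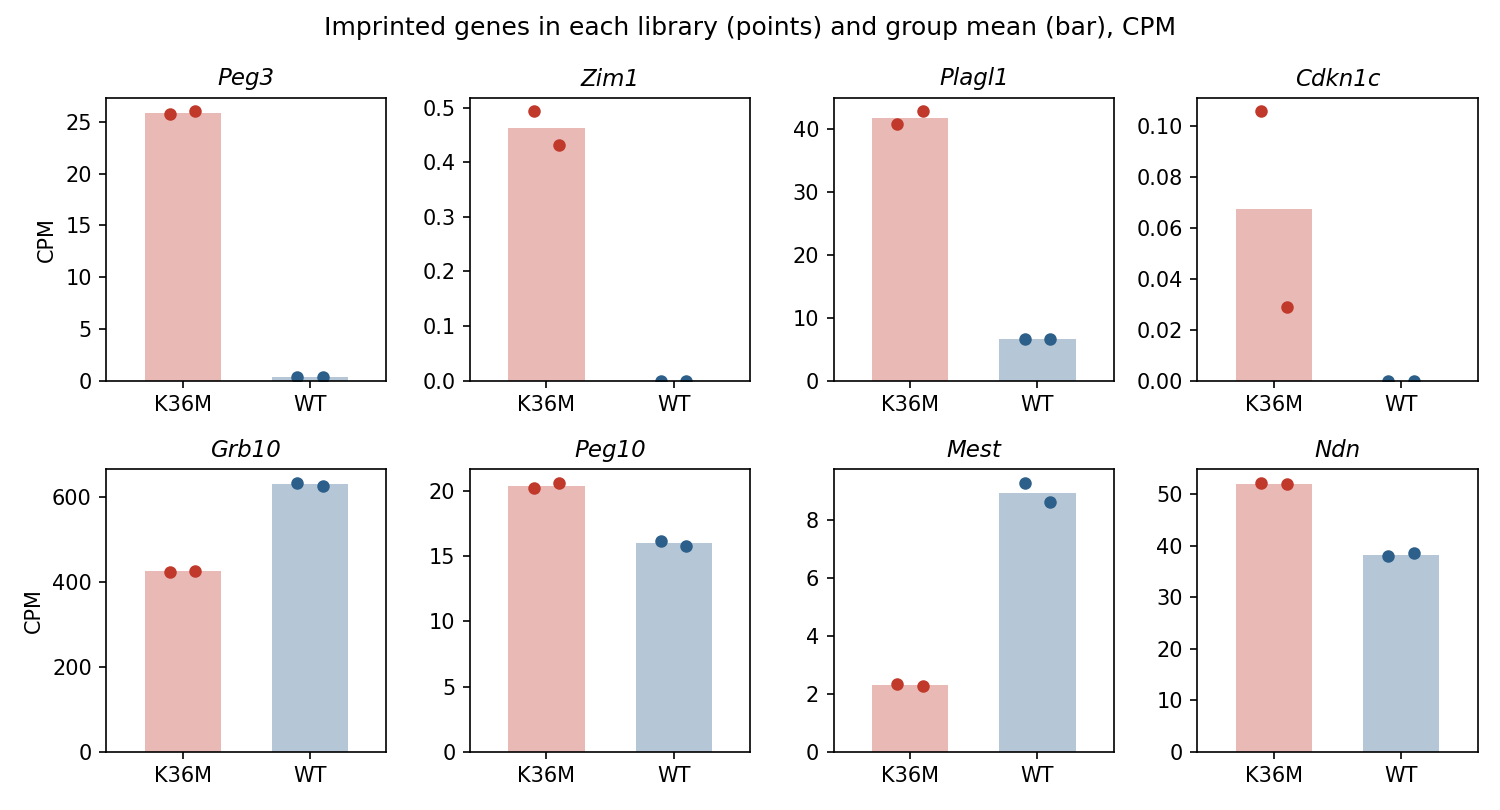
CPM of the 8 members with a row, with points for libraries and bars for group means, each panel on its own scale from 0. Peg3, Zim1 and Plagl1 stand far higher in K36M, Mest stands far lower, Grb10, Peg10 and Ndn are shifted by under 1.5-fold, and Cdkn1c stays under 0.11 CPM.

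Peg3 encodes a large zinc finger protein, also called PW1, that is expressed from the paternal copy and marks several adult progenitor populations. It stood at 25.8 and 26.0 CPM in the K36M libraries, against 0.323 and 0.391 CPM in the WT libraries, which rest on 8 and 9 counts. The K36M libraries were almost equal, and every one of them was far above both WT libraries. The difference was 72.1-fold (log2 fold change 6.17, SE 0.15, edgeR adjusted p = 4.10e-17). With so few WT counts, the ratio of the summed counts had a 95% Clopper-Pearson interval of 45.4 to 125, which covers counting error only. Peg3 is the only member in the authors' deposited table of 594 genes, which lists it at a fold of 63.2, K36M over WT. The lowest fold above 1 in that table is 10.07 and the highest below 1 is 0.0998. The fitted folds of Plagl1, Grb10, Peg10, Mest and Ndn lie between those values. Zim1, for which only a lower bound can be given, is not listed there either, and the reason was not tested.

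Zim1, the neighbouring zinc finger gene expressed from the maternal copy, had counts in the K36M libraries and none in the WT libraries. It had 28 and 15 counts in K36M, or 0.493 and 0.432 CPM, and 0 counts in both WT libraries. Set against a floor of 3 counts over the WT group, Zim1 was at least 7.48-fold higher in K36M (edgeR adjusted p = 3.25e-05). Counting error in the K36M libraries as well puts the lower 95% Clopper-Pearson limit of the ratio at 5.83. Usp29, a ubiquitin-specific protease gene that starts head to head with Peg3 and shares its paternal expression, did not pass the filter, with 0.106 and 0.173 CPM in K36M and 0.121 and 0.0869 CPM in WT. Those values overlap and rest on 2 to 6 counts per library.

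Apart from Zim1, for which a lower bound is all that can be given, the genes around Peg3 changed less. Of the 5 nearest tested genes on each side of Peg3, 3 were higher and 3 lower, Zim1 included. Over all genes 38.5% were higher and 37.1% lower. The genes flanking Peg3 had a median log2 fold change of -0.14. Most of these flanking genes encode zinc finger proteins themselves. Zfp773 was 3.36-fold higher in K36M (2.64 and 3.08 CPM in K36M, 0.726 and 0.956 CPM in WT). On the other side Zfp28 and Zfp78 were lower, with log2 fold changes of -0.53 and -1.04.

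Plagl1 encodes a zinc finger transcription factor, also known as Zac1, that is expressed from the paternal copy, restrains proliferation and in mouse regulates other imprinted genes. It stood at 40.8 and 42.8 CPM in K36M, against 6.66 and 6.69 CPM in WT. Replicates differed by at most 1.05 times within a group. Plagl1 was 6.24-fold higher (log2 fold change 2.64, SE 0.07, edgeR adjusted p = 2.49e-16). Among its 10 nearest tested genes 1 changed at least 2-fold, Phactr2, a phosphatase and actin regulator, with 10.2 CPM in K36M and 1.69 CPM in WT on average. The median log2 fold change of those 10 was 0.033. Over all genes 12.7% were at least 2-fold higher and 8.69% at least 2-fold lower.

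Relatives of Plagl1 outside imprinted domains were read beside it. Plag1, its oncogenic paralog, rose to 8.60 ± 0.160 CPM in K36M, against 1.24 ± 0.213 CPM in WT (SD, n = 2 each), a 6.96-fold difference (edgeR adjusted p = 5.62e-12). Over all 10 paralogs listed for the members 8 were tested, 4 higher and 2 lower, with a median log2 fold change of 0.14. Those past the threshold made up 75% of the tested paralogs, beside 75.6% of all genes. Maged2, a relative of Ndn, was 1.61-fold higher, and Cdkn1b, which encodes the p27 relative of the Cdkn1c protein, 1.27-fold higher. Maged1 and Cdkn1a were lower by little, with log2 fold changes of -0.09 and -0.10, and lost their calls without WT replicate 1 (edgeR adjusted p = 0.0833 and 0.0825), without WT replicate 2 (0.170 and 0.210) and under total counts (0.272 and 0.273), and were past the threshold in 7 and 6 of 12 alternatives.

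Mest, the mesoderm-specific transcript, encodes a hydrolase-fold protein, is expressed from the paternal copy and is known for its expression in mesoderm and in expanding fat tissue. It stood at 2.34 and 2.27 CPM in K36M, against 9.28 and 8.60 CPM in WT. Both K36M libraries were below both WT libraries, and Mest was 3.86-fold lower (log2 fold change -1.95, SE 0.12, edgeR adjusted p = 4.66e-11). Copg2, a coatomer gene that lies next to Mest on the opposite strand, was also lower, at 75.6 and 77.4 CPM in K36M and 111 and 113 CPM in WT (log2 fold change -0.55, edgeR adjusted p = 1.67e-09). In the GENCODE M21 annotation 23.1% of the exon bases of Mest are shared with Copg2, and without a stated strand setting reads of the pair there cannot be told apart.

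Mest fell further than Copg2 between the groups. The ratio of Mest to Copg2 counts was 0.0310 and 0.0294 in K36M and 0.0838 and 0.0760 in WT (exact two-sided permutation p = 0.333, the smallest that 2 against 2 libraries allow). Of the 10 nearest tested genes of Mest 7 were lower in K36M and 0 higher, beside 37.1% and 38.5% of all genes. The median log2 fold change of those 10 was -0.66. Among them Podxl, the podocalyxin gene, had the largest fall (log2 fold change -2.85), and Cpa1, a pancreatic carboxypeptidase gene, fell to 1.07 and 1.01 CPM in K36M, against 3.67 and 3.04 CPM in WT (log2 fold change -1.68). Cpa4, listed as imprinted, had 0.247 and 0.432 CPM in K36M and 0.363 and 0.739 CPM in WT and did not pass the test (edgeR adjusted p = 0.119), though it did without WT replicate 1 (0.0338). Klf14 had 0 counts in all 4 libraries.

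Grb10 encodes an adaptor protein that binds insulin and insulin-like growth factor receptors and dampens their signalling, and outside the brain it is expressed mainly from the maternal copy. It stood at 423 and 426 CPM in K36M, against 633 and 625 CPM in WT. The values of a group differed by at most 1.01 times, and Grb10 was 1.48-fold lower (log2 fold change -0.57, SE 0.03, edgeR adjusted p = 3.44e-11). Counts are summed over transcripts, so its maternal and brain-type starts are not told apart. The genes on either side fell further. Ddc, which encodes dopa decarboxylase, had 0.0528 and 0.0863 CPM in K36M and 0.605 and 0.782 CPM in WT (log2 fold change -3.33). Cobl, an actin nucleator gene, had 0.335 and 0.317 CPM in K36M and 3.07 and 2.74 CPM in WT (log2 fold change -3.14). Of the 10 nearest tested genes 7 were higher and 3 lower, these included. In all 8 of the 10 changed at least 2-fold, against 12.7% of all genes at least 2-fold higher and 8.69% at least 2-fold lower. Some of these 8, Abca13, Ddc and Cobl among them, passed the filter through 1 group alone. Abca13, 4 tested genes before Grb10, had the largest rise, from near 0. It had 1.29 and 1.53 CPM in K36M and 0 and 0.0434 CPM in WT.

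Peg10 and Sgce start close together, head to head, and both are expressed from the paternal copy. Peg10 derives from a retrotransposon and is known for its part in placenta formation, and Sgce encodes epsilon-sarcoglycan, a membrane protein. Peg10 stood at 20.2 and 20.6 CPM in K36M, against 16.2 and 15.8 CPM in WT, and was 1.27-fold higher (log2 fold change 0.35, SE 0.07, edgeR adjusted p = 2.52e-04). Sgce stood at 36.9 and 36.6 CPM in K36M, against 59.9 and 60.5 CPM in WT, and was 1.64-fold lower (log2 fold change -0.71, edgeR adjusted p = 1.03e-10). The pair thus moved in opposite directions, and the ratio of Peg10 to Sgce counts was 0.548 and 0.564 in K36M against 0.270 and 0.261 in WT (exact two-sided permutation p = 0.333, again the smallest possible). That ratio needs no scaling between libraries.

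Other genes of the Peg10 region moved much further than Peg10 itself. Pdk4, a kinase gene that limits pyruvate oxidation, was 16.7-fold higher (57.2 and 58.1 CPM in K36M, 3.27 and 3.65 CPM in WT). Casd1, a sialic acid acetyltransferase gene, was 14.3-fold higher (11.5 and 11.97 CPM in K36M, 0.767 and 0.869 CPM in WT). Pon3, a paraoxonase gene, and Asb4 were 5.36-fold and 9.85-fold higher, Asb4 from 5 counts in WT. Pon2 did not pass the test (33.0 CPM in K36M and 32.5 CPM in WT on average). Ppp1r9a and Tfpi2 were at most 0.176 CPM in any library, and Calcr had 0 counts. In all, 6 of the 10 nearest tested genes of Peg10 changed at least 2-fold. Over all genes 12.7% were at least 2-fold higher and 8.69% at least 2-fold lower.

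Ndn encodes necdin, a growth-suppressing protein of the MAGE family expressed from the paternal copy, best known from neurons and from the Prader-Willi region. It stood at 52.3 and 51.9 CPM in K36M, against 38.0 and 38.6 CPM in WT. Ndn was 1.36-fold higher (log2 fold change 0.45, SE 0.05, edgeR adjusted p = 1.26e-07), with replicates within 1.02 times of each other. Other paternally expressed genes of the region did not move alike. Snrpn, which encodes a spliceosomal Sm protein, had 43 and 32 counts in K36M, or 0.757 and 0.921 CPM, and 0 in WT, at least 13.1-fold higher by the same floor (lower Clopper-Pearson limit 10.4, edgeR adjusted p = 1.37e-06). Its reads can be split with Snurf, which shares its transcript and had 10 and 0 counts in the K36M libraries and 0 in WT. Peg12 was lower, at 4.86 and 4.52 CPM in K36M and 6.50 and 6.39 CPM in WT (log2 fold change -0.45, edgeR adjusted p = 0.00154). Mkrn3 did not pass the test (2.13 and 2.01 CPM in K36M, 2.54 and 2.17 CPM in WT), and Magel2 had 1 count in all.

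Ube3a, a ubiquitin ligase gene imprinted in neurons, did not pass the test at 48.0 and 53.5 CPM in K36M and 51.8 and 54.4 CPM in WT, though it was lower past the threshold without K36M replicate 2 (edgeR adjusted p = 0.00755) and under the authors' factors (0.0165). Atp10a, a phospholipid flippase gene, was 1.56-fold higher. Oca2, a melanosome gene 4 tested genes before Ndn and not listed as imprinted, had 0 counts in WT and was at least 14.8-fold higher in K36M, at 0.775 and 1.18 CPM. Like Snrpn, Oca2 passed the filter through K36M alone. The ratio of Ndn to Peg12 counts was 10.8 and 11.5 in K36M and 5.84 and 6.04 in WT (exact two-sided permutation p = 0.333).

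**Figure D2:**
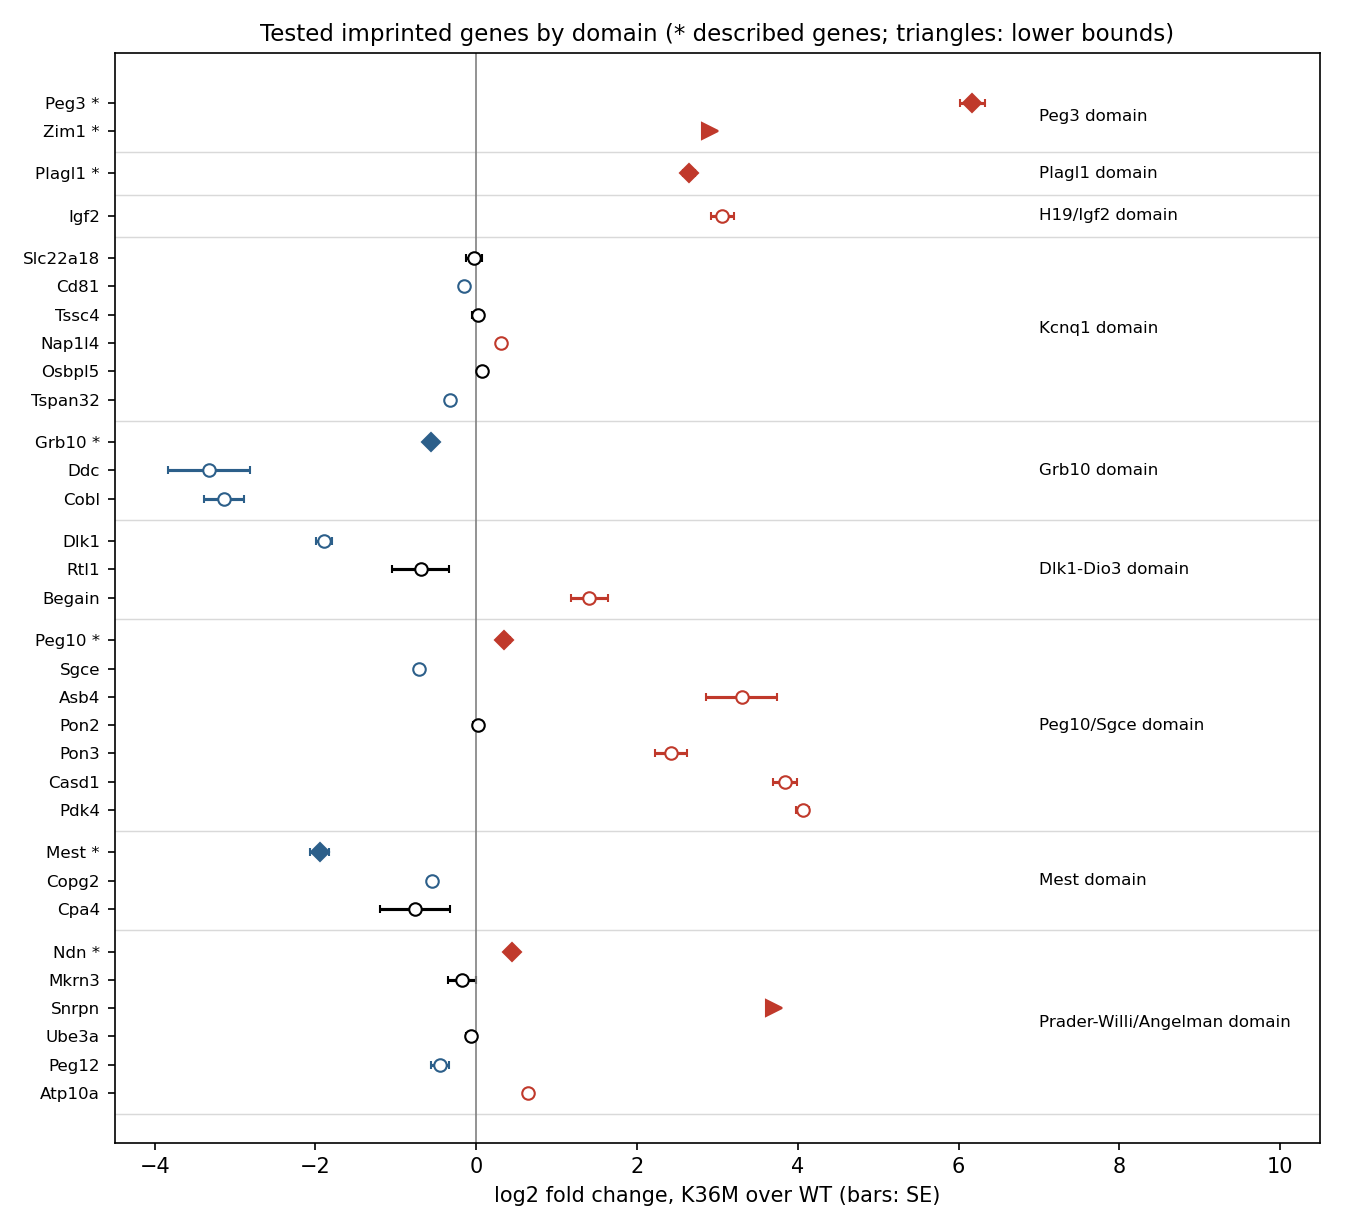
Log2 fold change, K36M over WT, of every tested gene of the 9 domains, with SE bars. Diamonds mark the members, open circles their domain partners and triangles lower bounds for genes at 0 in WT. Red is higher, blue lower and black not past an adjusted p of 0.05. Within the Peg10, Prader-Willi, Dlk1 and Kcnq1 domains genes lie on both sides of 0.

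Cdkn1c encodes p57, a cyclin-dependent kinase inhibitor expressed from the maternal copy. It was barely detected, with 6 counts and 1 count in the K36M libraries, or 0.106 and 0.0288 CPM, and 0 in both WT libraries. The floor of 3 counts over the WT group stood for 0.0628 CPM, so a WT level under that can go without a count at this depth. Tested without the filter, Cdkn1c did not pass (edgeR adjusted p = 0.116). Its maternally expressed neighbours Phlda2 and Ascl2 were as scarce, with 16 and 5 counts in the K36M group and 2 and 0 counts in the WT group, and Kcnq1 had 10 and 4.

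Other genes of the Kcnq1 domain were well expressed and changed little. Cd81, which encodes a tetraspanin, stood at 268 and 261 CPM in K36M and 291 and 295 CPM in WT (log2 fold change -0.15, edgeR adjusted p = 0.00140). Nap1l4, a histone chaperone gene, was 1.23-fold higher and Tspan32 1.25-fold lower. Slc22a18, Tssc4 and Osbpl5 did not pass the test (edgeR adjusted p = 0.816, 0.824 and 0.177), and Osbpl5 passed it under total counts (0.0245) and upper quartile scaling (0.0367).

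The H19 and Meg3 domains were reached only through their protein-coding genes. Beside H19, Igf2, the paternally expressed growth factor gene, stood at 12.9 and 12.5 CPM in K36M and 1.82 and 1.22 CPM in WT, and Ins2 had 0 counts. Beside Meg3, Dlk1, the paternally expressed preadipocyte gene, stood at 3.997 and 3.66 CPM in K36M and 14.4 and 14.3 CPM in WT. Rtl1, a retrotransposon-derived gene of the same domain, did not pass the test (0.775 and 0.317 CPM in K36M, 0.888 and 1.04 CPM in WT, edgeR adjusted p = 0.0800), and it passed without K36M replicate 1 (0.00343), under the authors' factors (0.0429) and without the filter (0.0375). Begain, at the edge of the domain, was 2.65-fold higher. Dio3 had 1 count in each group.

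**Figure D3:**
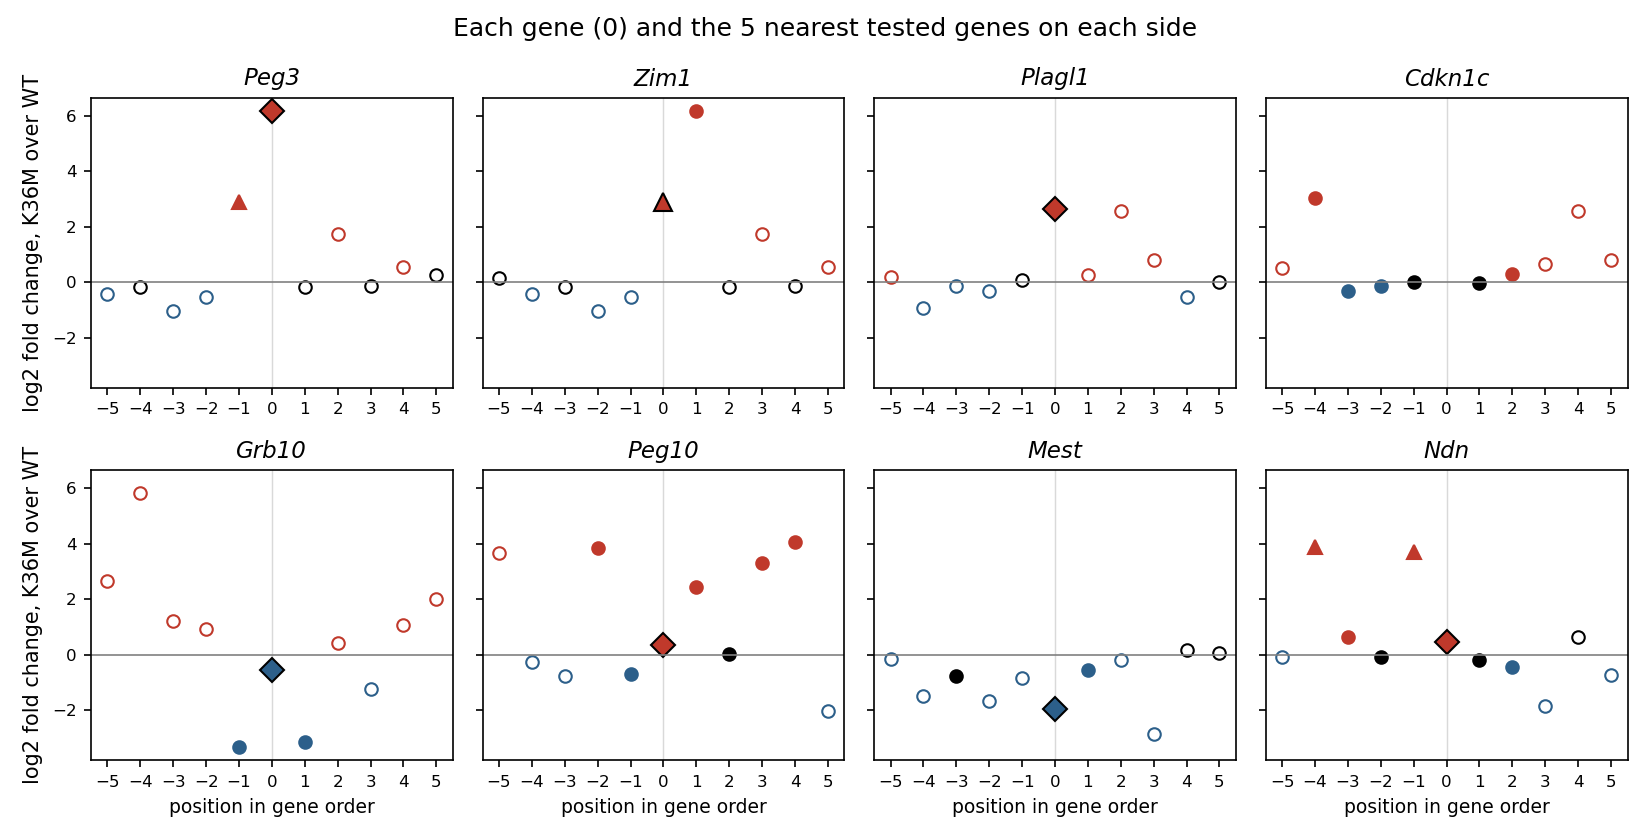
Log2 fold change, K36M over WT, of each member (position 0, outlined, none for Cdkn1c, which was not tested) and of the 5 nearest tested genes on each side in RefSeq order. Filled circles are listed as imprinted, open circles are not, triangles are lower bounds, and red, blue and black mark higher, lower and not past the threshold. Peg3 and Plagl1 stand above most of their neighbours, and 7 of the 10 neighbours of Mest are lower, beside 37.1% of all genes.

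Over the wider list of 80 imprinted genes, drawn up with earlier results of these data known, 64 had a row and 47 were tested. Whether the listed genes are imprinted in these cells was not tested. Of these 19 were higher and 17 lower in K36M, so that 76.6% passed the threshold, beside 75.6% of all genes. Their median log2 fold change was 0.017, beside 0.0035 over all genes. Setting genes at 0 to their bounds changed neither median, and could not, since the bounds lie on the same side of it. Of the 47, 12 were at least 2-fold higher and 5 at least 2-fold lower (25.5% and 10.6%), beside 12.7% and 8.69% of all genes. Among these 47, 7 had passed the filter through K36M alone and 4 through WT alone. Among the 40 tested genes that were not members 14 were higher and 15 lower, 9 and 4 of them at least 2-fold. By parental copy, 7 of 18 tested paternally expressed genes were higher and 6 lower, and 2 of 7 maternally expressed genes were higher and 3 lower. For the other 22 tested genes the list names no copy, and 10 of them were higher and 8 lower. Beside these counts stand 38.5% higher and 37.1% lower over all genes.

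At loci outside the domains of the members, Sfmbt2, a Polycomb-type gene imprinted in mouse extraembryonic tissue, was far higher in K36M. It stood at 12.7 and 12.5 CPM in K36M and 0.282 and 0.261 CPM in WT, 45.8-fold higher (edgeR adjusted p = 4.71e-15). Gatm, a creatine synthesis gene, had 37 and 15 counts in K36M and 0 in WT, at least 9.05-fold higher by the same floor (lower Clopper-Pearson limit 7.10), and Commd1 was 1.25-fold higher. Slc22a2, an organic cation transporter gene, was 7.70-fold lower (0.599 and 0.720 CPM in K36M, 5.20 and 4.78 CPM in WT). Its neighbour Igf2r was lower with a log2 fold change of -0.82, and Zrsr1 was 1.32-fold lower.

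Tested genes for factors that keep or read imprints changed by at most 2.38-fold. Zfp57, which binds methylated TGCCGC in imprinting control regions and recruits Trim28, stood at 19.03 and 19.8 CPM in K36M, against 8.84 and 7.43 CPM in WT (edgeR adjusted p = 5.60e-10). The maintenance methylation genes Uhrf1 and Dnmt1 were 1.99-fold and 1.63-fold higher. Dnmt3a, the de novo methyltransferase gene, was 1.34-fold lower, at 59.4 and 56.3 CPM in K36M and 76.9 and 78.1 CPM in WT, and Ehmt1, an H3K9 methyltransferase gene, was 1.45-fold lower. Dnmt3b was lower with a log2 fold change of -0.39 (edgeR adjusted p = 0.00669), but lost its call when WT replicate 2 (0.0887) or K36M replicate 1 (0.0546) was left out and in the DESeq2 Wald test (0.111). Of 16 tested factors 7 were higher and 5 lower, with a median log2 fold change of 0.029. Those past the threshold made up 75% of the tested factors, beside 75.6% of all genes.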

How the data were processed

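RNA of 4 libraries, 2 per group, was sequenced. Bowtie 1.0.0, RSEM 1.2.12 and mouse build mm9 are named, without roles, per the submitters' processing notes. The main matrix holds raw RSEM expected counts, which went into EBSeq per the file headers. Another deposited table gives a log2 value per library and a linear fold (ratio) for 594 genes; its log2 values equal log2 of the expected count times a factor per library plus 1, within 5e-09, and the fold is the ratio of the group means of the unlogged values with the 1 kept in. Libraries were made by the TruSeq protocol per the labels; the sources used here do not give the strand setting.

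Expected counts were rounded to whole numbers for edgeR 4.0.16 (R 4.3.3), with filterByExpr, TMM and the quasi-likelihood F test on all 4 libraries (K36M over WT, 2 residual and 15.7 prior degrees of freedom, Benjamini-Hochberg adjustment over 13162 genes, threshold 0.05). The common coefficient of variation was 3.33%. CPM use TMM effective library sizes, and SE is the log2 fold change divided by the square root of F. The test was run on simulated counts first. DESeq2 1.42.0, other scalings and filters, a replicate block and leaving out each library were alternatives. Members and gene lists were chosen with earlier results of these data known. All members and all domain partners with counts are named; elsewhere up to 3 genes per direction with the largest change past the threshold; neighbours not listed as imprinted were picked for naming after their values were seen. Gene order and promoters came from RefSeq on GRCm38.p6 and were used only for neighbourhood and sequence. Listed symbols were matched by symbol or RefSeq synonym. No molecular identifiers are named in the sources used here, so intervals and floors cover counting error only.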

Additional observations from a re-analysis of the deposited data

How the results depend on the processing

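The 7 tested members kept their direction and stayed past the threshold under every alternative that gave them a value. Peg3 ranged over log2 fold changes of 6.03 to 6.31, Plagl1 2.56 to 2.69, Peg10 0.26 to 0.40, Ndn 0.36 to 0.50, Grb10 -0.65 to -0.52 and Mest -2.04 to -1.90. Zim1, which a mean of 5 CPM left out, had fitted values that depend on a prior count and adjusted p up to 0.00120. Of imprint maintenance factors 5 were lower, but 3 with the DESeq2 Wald test and 3 to 5 when a library was left out. Of paralogs 2 were lower, but 0 under total counts and upper quartile scaling, 1 with the DESeq2 Wald test, 0 to 2 without a library and 0 at a mean of 5 CPM, where 3 passed in all, with 7 tested in place of 8. The median of the imprinted list turned negative under the authors' factors (-0.069), at a mean of 5 CPM (-0.0053) and without WT replicate 1 (-0.049), WT replicate 2 (-0.018) or K36M replicate 2 (-0.044); that of the maintenance factors did so under the authors' factors (-0.057). The cause was not tested. With the replicate block 9804 genes passed in place of 9949 and no count for the lists changed; same-numbered libraries shared only a number (correlation of deviations across genes 0.0017). Depth limits Cdkn1c, Zim1, Usp29 and Snrpn, with at most 43 counts per library.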

Other observations

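Zim1 had the largest fitted log2 fold change of the members (7.04), a value that depends on the prior count since WT was at 0. The 3 tested genes nearest to it by that measure were Iyd, Pcdh20 and Defb41, with means of 0.462, 0.457 and 0.451 CPM in K36M and 0 in WT over the 4 libraries. By fitted log2 fold change Peg3 was number 207 from the top of the 13162 genes tested, Plagl1 number 722, Ndn 3112 and Peg10 3660. From the bottom, Mest was number 500 and Grb10 number 2113.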
